A study of Macaca mulatta with 4 samples.

Results

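The ZNF genes are numbered zinc finger genes, most of which encode DNA-binding proteins with arrays of C2H2 fingers. They were followed in RNA from the amygdala of wild-type infant rhesus macaques (Macaca mulatta). The table of 35395 genes holds 394 rows whose symbol is ZNF followed by digits and at most 1 letter. The 194 rows described here were chosen by their mean raw count, 200 or more over the 4 libraries, and all 194 passed the filter on low counts. The study had 2 conditions. The sevoflurane libraries (2) came from 1 female and 1 male that inhaled the anaesthetic at about 2.5% to 3% for 4 hours on each of 3 occasions, near postnatal days 7, 21 and 35, with tissue taken directly after the last. The control libraries (2) came from 1 female and 1 male labelled as controls. The sources used here do not say what the controls breathed. Apart from sex, no label says how the libraries of a condition relate, so p-values measure the spread between 1 female and 1 male library of each condition. Values by library are given in the order female, male, first for controls and then for sevoflurane.

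A C2H2 finger is a short fold held together by a zinc ion, and an array of fingers reads a stretch of DNA or RNA. Many primate ZNF proteins also carry a KRAB box, which recruits the scaffold protein TRIM28. TRIM28 in turn brings in enzymes and binding proteins of heterochromatin, and in this way KRAB zinc finger proteins silence transposable elements and some genes. Other ZNF proteins act as activators at promoters, as developmental regulators of neurons and glia, or on RNA, ribosomes and the mitotic spindle.

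More of the 194 ZNF genes were higher than lower after sevoflurane. Of these genes 70 were called higher (36.1%), 20 lower (10.3%) and 104 in neither direction, by edgeR's quasi-likelihood test at an adjusted p under 0.05 over all genes. Among all 15417 tested genes 21.3% were called higher and 19.4% lower. Among the 9323 tested genes with the same count minimum the shares were 22.4% and 25.5%. The median log2 fold change of the 194 genes was 0.53, with quartiles at −0.29 and 1.5, against 0.0040 for all tested genes and −0.06 for those with the same minimum. It ran from −3.0 for ZNF593 to 7.12 for ZNF770.

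The share of reads on the 194 genes was 0.598% and 0.543% in controls and 0.862% and 0.861% after sevoflurane. The median gene stood at 23.9, 21.9, 31.2 and 30.0 CPM (read counts scaled to a common library size with TMM, a trimmed-mean factor). Both summaries cover genes chosen by these same counts. The sevoflurane libraries alone brought 58 genes to the minimum, and the control libraries alone 13. Both sevoflurane libraries lay above both controls for 110 genes (56.7%), against 37.7% of all tested genes. Both lay below for 50 (25.8%), against 37.3%, and for 34 the conditions overlapped. Among the tested genes with the same minimum the shares were 37.3% above and 42.0% below. With sex as a term in the fit 79 were called higher and 31 lower, in place of 70 and 20. The calls over all tested genes in that fit are not given here, so the rise cannot be set against them. Without the control male library 45 of the 194 genes were called higher and 16 lower, and without the sevoflurane male library 43 and 13.

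**Figure D1:**
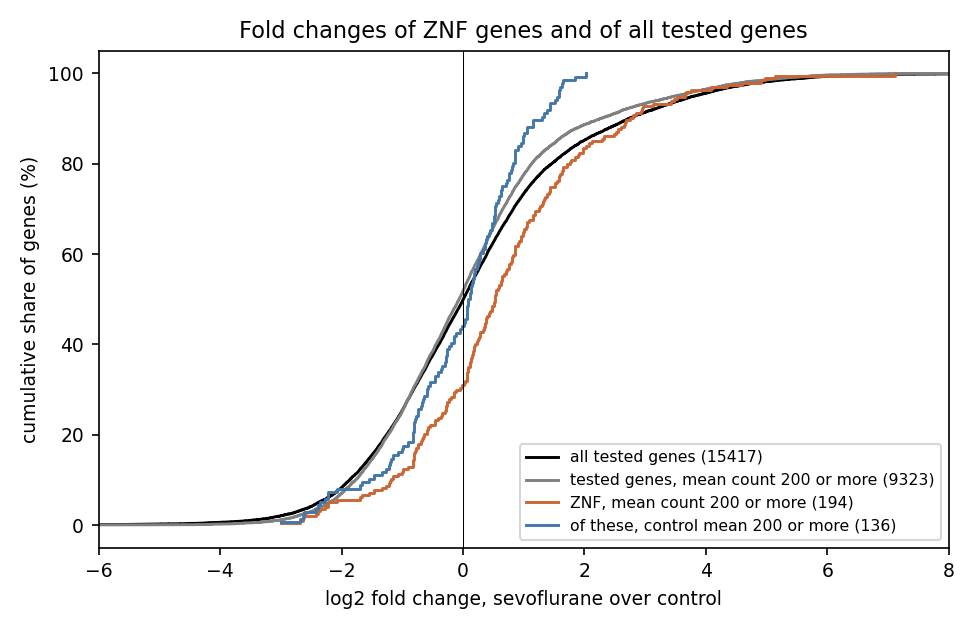
Cumulative share of genes (%) against the log2 fold change of sevoflurane over control, for all tested genes, tested genes with a mean count of 200 or more, the 194 ZNF genes, and the 136 of them with a control mean of 200 or more. The line of the 194 genes lies to the right of both reference lines over most of its range, and that of the 136 crosses 50% at a log2 fold change of 0.10.

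The counts depended on where the minimum of 200 reads was set. In 58 of the 194 genes the control libraries averaged fewer than 200 reads, so they met the minimum through the sevoflurane libraries and had to be higher there. Of these, 46 were called higher (79.3%) and 0 lower, beside 80.3% and 0 of the 1328 tested genes so selected, so their share was that of the selection. Both sevoflurane libraries lay above both controls in 55 of the 58 (94.8%), beside 93.4% of the 1328. Among the 136 genes with a control mean of 200 or more, 24 were called higher (17.6%) and 20 lower (14.7%), with a median of 0.10. The 7995 tested genes chosen in that way had 12.7% higher, 29.8% lower and a median of −0.33. Of the 136, 55 had both sevoflurane libraries above both controls (40.4%) and 50 had both below (36.8%). Among the 7995 those shares were 27.9% and 48.9%. Another 13 genes averaged fewer than 200 reads after sevoflurane, so they met the minimum through the control libraries and had to be lower. Of these, 9 were called lower (69.2%), and the share among all genes so selected was not counted. In the 123 genes with at least 200 reads on average in each condition, 24 were higher and 11 lower, and the median was 0.17. All tested genes held to that last requirement had 13.8% higher, 25.9% lower and a median of −0.22.

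Setting the minimum on 1 condition moved the counts in the same manner. With a control mean of 200 or more as the only requirement, 144 ZNF rows gave 24 higher and 24 lower (16.7% each), beside 12.3% and 30.8% of all genes so chosen. With a sevoflurane mean of 200 or more, a choice made after seeing the data, 222 rows gave 97 higher and 11 lower (43.7% and 4.95%), beside 26.8% and 20.5%. Below the minimum of 200 over all libraries, 185 further ZNF rows were tested, and 15 rows were not tested. Of the 185, 83 were higher and 7 lower (44.9% and 3.78%) with a median of 1.5, beside 21.3% and 19.4% of all tested genes. The shares among all genes below that minimum were not counted. Next to the minimum on the inside stood ZNF252 with 178 and 114 control and 294 and 234 sevoflurane reads, and ZNF559 with 162, 71, 234 and 344. Next to it on the outside stood ZNF827 with 60, 45, 440 and 243 reads and ZNF19 with 264, 216, 162 and 143.

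**Figure D2:**
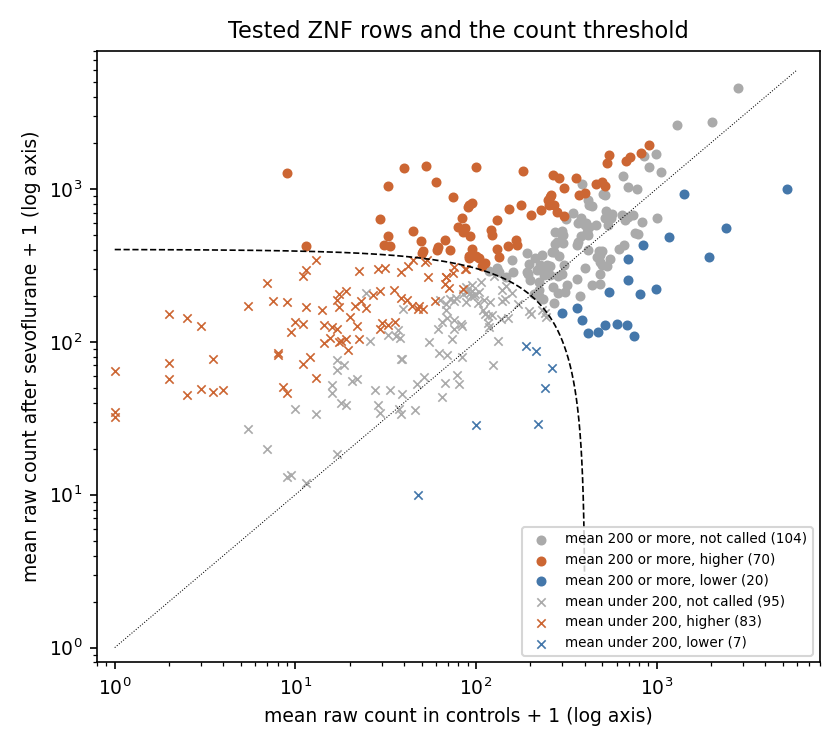
Mean raw count in the 2 sevoflurane libraries against that in the 2 control libraries, each plus 1 on log axes, for the 379 tested ZNF rows. The dashed curve is a mean of 200 over the 4 libraries and the dotted line marks equal counts. Many higher calls lie at the left, where control counts were low, while the lower calls lie at the right.

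The genes of largest rise had few reads in control amygdala, and the 8 shown were all among the 58 that met the minimum through the sevoflurane libraries. ZNF770 (ENSMMUG00000046486) was at 0.718 and 0.444 CPM in controls and at 69.2 and 98.1 after sevoflurane. That is 11 and 5 control reads against 1094 and 1428, a log2 fold change of 7.12 ± 0.45 SE (139-fold, edgeR adjusted p = 0.00141). ZNF12, a KRAB repressor, was at 0.913 and 0.622 CPM in the controls and at 25.8 and 29.6 after sevoflurane (5.14 ± 0.45). In both genes the conditions lay far apart and the sexes close together.

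ZNF471, another KRAB gene, went from 2.22 and 2.58 to 29.5 and 35.4 CPM (3.76 ± 0.38). ZNF33B, also of the KRAB type, went from 4.89 and 3.82 to 54.1 and 94.6 CPM (4.09 ± 0.41). Its close copy ZNF33A, named outside the rule, was at 30.7 and 24.2 CPM in controls and 47.3 and 74.2 after sevoflurane (1.15 ± 0.33), and its call was lost without either male library. Reads shared by such copies may be assigned unevenly, so the values of this pair are uncertain. For each of these 3 genes both sevoflurane libraries exceeded both controls.

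**Figure D3:**
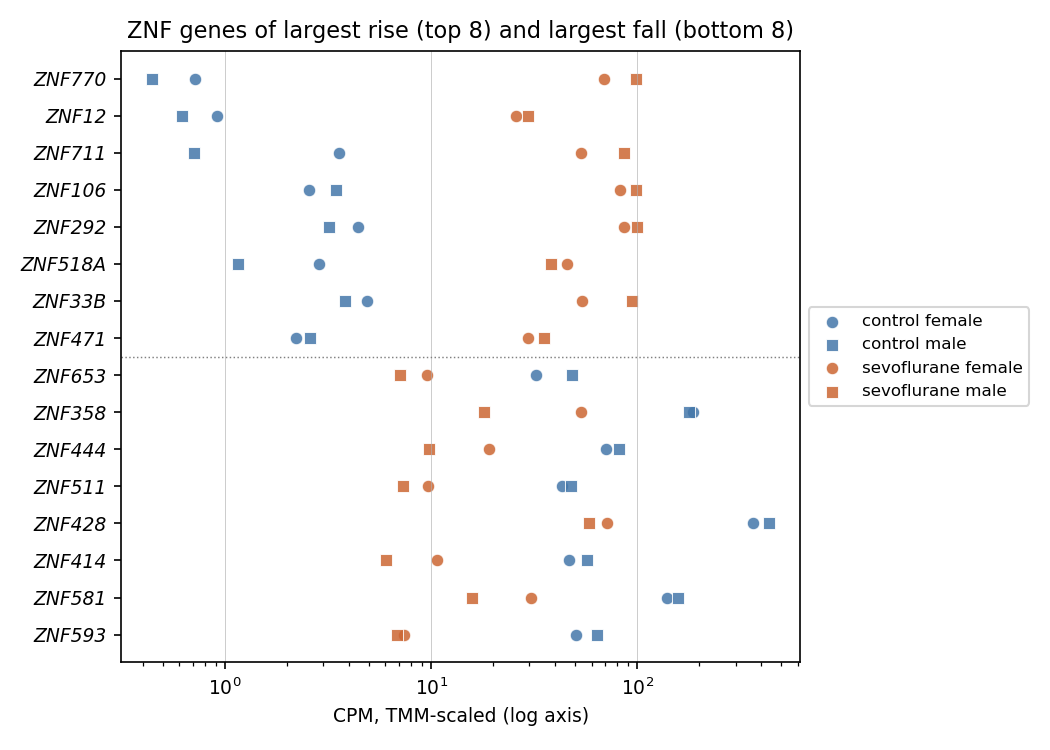
CPM with TMM scaling (log axis) in each of the 4 libraries for the 8 ZNF genes of largest called rise and the 8 of largest called fall. Circles are females, squares males, blue controls and orange sevoflurane. Control and sevoflurane points do not overlap in any of the 16 genes, which were picked for their large called changes. Of all tested genes, 37.7% had both sevoflurane libraries above both controls and 37.3% had both below. The spread between the sexes is wide for ZNF711 in controls and for ZNF358 after sevoflurane.

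The genes of largest fall were well covered in controls. Of those shown, ZNF593, ZNF414, ZNF511 and ZNF653 had 117 and 99, 169 and 88, 153 and 106, and 151 and 103 sevoflurane reads. Their sevoflurane means were under the count minimum, so they met it through the control libraries and had to be lower. The other falling genes shown averaged more than the minimum in each condition. ZNF593, which binds maturing large ribosomal subunits, was at 50.3 and 63.9 CPM in controls and at 7.41 and 6.80 after sevoflurane. Its log2 fold change was −3.0 ± 0.32 SE (8.02-fold lower, edgeR adjusted p = 0.00224). ZNF428, with 5601 and 4922 control reads, went from 365 and 437 to 71.5 and 58.5 CPM (−2.63 ± 0.27). ZNF581 went from 139 and 158 to 30.6 and 15.8 CPM (−2.68 ± 0.38). In these genes the sevoflurane libraries were lower in both sexes.

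ZNF414 went from 46.9 and 57.3 to 10.7 and 6.04 CPM (−2.64 ± 0.39), and ZNF511 from 43.1 and 47.8 to 9.68 and 7.28 (−2.42 ± 0.33). ZNF444, a SCAN-domain protein first described in endothelium, went from 70.2 and 81.5 to 19.1 and 9.75 CPM (−2.40 ± 0.39). ZNF653, a repressor that binds the nuclear receptor SF-1, went from 32.2 and 48.4 to 9.56 and 7.07 CPM (−2.27 ± 0.37). All of these kept both sevoflurane values below both controls. ZNF358 was at 187 and 178 CPM in controls, but at 53.2 and 18.1 after sevoflurane, the male being the lower (−2.35 ± 0.51). Without the sevoflurane female library it was at −3.32.

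Of 24 listed regulators of the nervous system and of cell lineages, 13 belong to the 194 genes. Of the 13, 4 were called higher (30.8%), 0 lower and 9 in neither direction, with a median of 0.73. Among all genes with the same minimum 22.4% were called higher and 25.5% lower. All 4 higher genes of the list had a control mean under 200 and met the minimum through the sevoflurane libraries. Their direction was thus set by the selection. ZNF711, an X-linked gene mutated in intellectual disability, was at 3.59 and 0.711 CPM in controls and at 53.6 and 85.9 after sevoflurane (4.98 ± 0.73). Leaving out either control moved it, to 6.63 without the female and 4.25 without the male. ZNF292, a large protein mutated in neurodevelopmental disorders, went from 4.44 and 3.20 to 86.3 and 99.5 CPM (4.6 ± 0.34). For both the conditions were clearly apart, and the control spread was the wider for ZNF711.

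The other called genes of this list were ZNF804A, at a locus associated with schizophrenia, and ZNF462, mutated in a developmental syndrome, both outside the naming rule and named after their values were seen. ZNF804A was at 5.68 and 4.0 CPM in controls and 26.4 and 35.2 after sevoflurane (2.66 ± 0.39), and ZNF462 at 5.22 and 3.73 against 31.6 and 23.0 (2.60 ± 0.40). ZNF423, a regulator of cerebellar development, was at 16.4 and 13.1 CPM against 18.7 and 14.4, and its log2 fold change of 0.17 had a 95% interval from −0.69 to 1.03. ZNF24, needed for myelination, and ZNF335, mutated in microcephaly, missed the threshold, with 0.76 ± 0.26 (adjusted p = 0.0592, edgeR) and −0.77 ± 0.28 (adjusted p = 0.0675). In this list 2 genes were called lower without the sevoflurane female library and 3 with sex as a term.

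Of 19 general regulators of transcription and chromatin, 10 were called higher, 1 lower and 8 in neither direction, with a median of 1.44, beside 22.4% higher and 25.5% lower among all genes with the same minimum. Of the 10, 7 had a control mean under 200 and so had to be higher. Among the 10 genes of the list with a control mean of 200 or more, 3 were higher and 1 lower. The lower gene, ZNF219, averaged 165 reads after sevoflurane, so it met the minimum through the controls and had to be lower. ZNF518A, a partner of chromatin-silencing enzymes, was at 2.87 and 1.15 CPM in controls and 45.4 and 38.3 after sevoflurane (4.35 ± 0.51, and 5.19 without the control female library). ZNF281, a regulator of stem cell genes, went from 2.61 and 1.78 to 30.7 and 25.6 CPM (3.67 ± 0.41). Neither gene had overlapping conditions.

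ZNF518B, ZNF148 and ZNF644 were named after their values were seen. ZNF518B, the partner of ZNF518A by name, was at 21.7 and 21.1 CPM in controls and 76.3 and 78.4 after sevoflurane (1.85 ± 0.26). ZNF148, which binds GC-rich promoters, rose by 2.96 ± 0.42 (3.57 without the control female library). ZNF644, a partner of histone methyltransferases, rose by 1.44 ± 0.26. These 3 genes rose by less than ZNF518A on the log2 scale, a difference that was not tested.

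ZNF219, a repressor at GC boxes, was the gene that fell, from 26.9 and 27.3 to 13.8 and 7.69 CPM (−1.33 ± 0.39, edgeR adjusted p = 0.0367). Leaving out either control library ended the call (adjusted p = 0.0590 and 0.0601, edgeR), as did leaving out the sevoflurane male (0.135, at −0.97). It was also lost with library totals in place of TMM, where 0 genes of the list were called lower. ZNF512 was at 84.3 and 72.5 CPM in controls and 81.4 and 87.8 after sevoflurane (0.11, 95% interval −0.49 to 0.71). ZNF143, an activator at many promoters, had 0.39 ± 0.34.

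**Figure D4:**
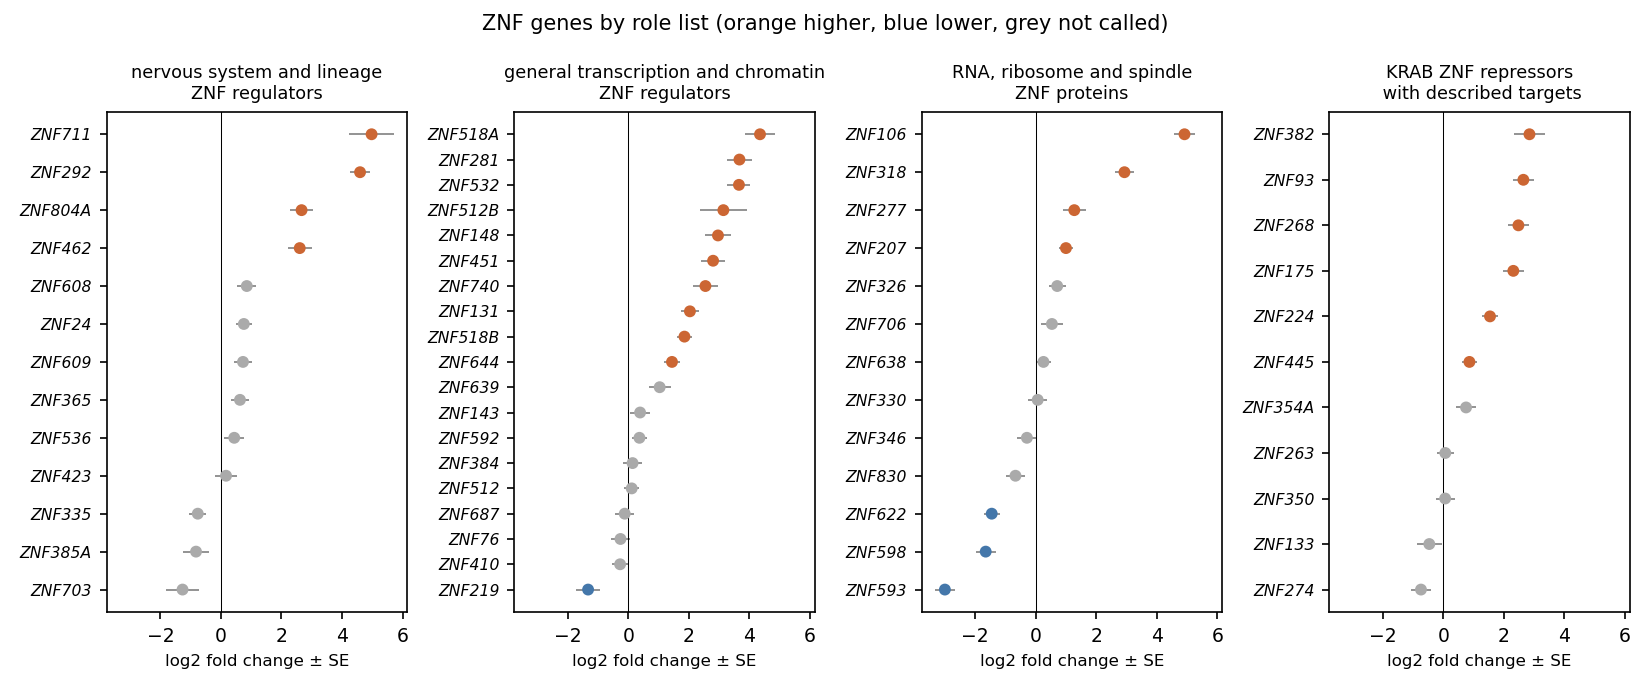
Log2 fold change of sevoflurane over control, with its SE, for the ZNF genes of each of 4 role lists. Orange points were called higher, blue lower and grey in neither direction. The RNA, ribosome and spindle list holds 3 of the lower calls, and the nervous system and KRAB lists hold 0.

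ZNF proteins that act on RNA, ribosomes or the spindle went both ways. All 13 listed were among the 194 genes, and 4 were called higher, 3 lower and 6 in neither direction, with a median of 0.25. These are 30.8% higher and 23.1% lower, beside 22.4% and 25.5% among all genes with the same minimum. Of the 4 higher, 3 (ZNF106, ZNF318 and ZNF277) had a control mean under 200 and had to be higher. Among the other 10 genes of the list, 1 was higher and 3 lower. Of the 3 lower, ZNF593 averaged 108 reads after sevoflurane and so had to be lower. ZNF106, an RNA-binding protein needed by motor neurons, was at 2.54 and 3.46 CPM in controls and 82.1 and 98.3 after sevoflurane (4.91 ± 0.35, edgeR adjusted p = 0.00141). ZNF318 went from 7.63 and 6.22 to 53.6 and 52.1 CPM (2.93 ± 0.32). Both were tightly reproduced between the sexes.

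The 3 that fell all act on ribosomes. They were ZNF593, described above, ZNF598 and ZNF622. ZNF598, the ubiquitin ligase that marks collided ribosomes, went from 53.8 and 50 to 19.9 and 13.0 CPM (−1.66 ± 0.33, adjusted p = 0.0106 by edgeR). ZNF622, which works in large-subunit maturation and was named after its values were seen, went from 85.9 and 89.8 to 29.5 and 34.5 CPM (−1.46 ± 0.26). All 3 were called lower without each library in turn and under each other alternative fitted. Cytosolic ribosomal protein genes, the structural parts of the same particle, had 66 of 77 called lower (85.7%) and 0 higher. Their median was −1.75, and 19.4% of all tested genes were called lower. A link between these genes and the 3 ZNF genes was not tested.

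The other 2 genes of this list that rose, ZNF277 and the spindle protein ZNF207, were named after their values were seen. ZNF207 was at 56.0 and 50.5 CPM in controls and 108 and 104 after sevoflurane (1.0 ± 0.24), and its call was lost without any 1 library (adjusted p between 0.0518 and 0.152, edgeR). ZNF277 rose by 1.27 ± 0.38, a call lost without either male library. The nucleolar protein ZNF330 stood at 16.2, 19.8, 18.9 and 18.7 CPM (0.06, 95% interval −0.71 to 0.84). ZNF638, a DNA- and RNA-binding silencer, had 0.25 ± 0.24.

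Of 16 listed KRAB zinc finger repressors with described targets, 11 were among the 194 genes. Of the 11, 6 were called higher, 0 lower and 5 in neither direction, with a median of 0.86. The 6 are 54.5% of the 11, beside 22.4% higher and 25.5% lower among all genes with the same minimum. Of the 6, 4 had a control mean under 200, so that their direction was set by the selection, and the other 2 (ZNF224 and ZNF445) were among 7 genes with a control mean of 200 or more. ZNF93, a repressor of LINE retrotransposons, was at 6.07 and 5.69 CPM in controls and 41.2 and 32.5 after sevoflurane (2.65 ± 0.34, edgeR adjusted p = 0.00306). ZNF382 went from 4.96 and 2.13 to 21 and 30.6 CPM (2.85 ± 0.52, and 3.62 without the control female library). In both genes the sevoflurane values were several times the controls in each sex.

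ZNF268, ZNF224, ZNF445 and ZNF274 of this list were named after their values were seen. ZNF268 rose by 2.48 ± 0.36 and ZNF224, a repressor of aldolase A, by 1.54 ± 0.27. ZNF445, which protects imprinted methylation, was at 60.7 and 63.1 CPM against 115 and 110 (0.86 ± 0.24), and its call was lost without any 1 library (adjusted p between 0.0711 and 0.165, edgeR). ZNF274, which recruits SETDB1 to the ends of ZNF genes, stood at 24.6 and 21.5 against 14.7 and 12.9 CPM without a call (−0.74 ± 0.32). ZNF350, a partner of BRCA1, stood at 17.5, 21.9, 20.2 and 20.9 CPM (0.06, 95% interval −0.70 to 0.83).

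The co-repressor and heterochromatin machinery used by KRAB proteins had calls in both directions, at shares near those of all tested genes. Of 37 rows for 36 symbols, 10 were called higher (27.0%), 5 lower (13.5%) and 22 in neither direction, with a median of 0.16, beside 21.3% higher and 19.4% lower among all tested genes. TRIM28, the scaffold itself, was at 325 and 337 CPM in controls and 119 and 64.1 after sevoflurane (−1.85 ± 0.35, edgeR adjusted p = 0.00906). MBD3, a subunit of the NuRD complex, went from 646 and 973 to 133 and 83.1 CPM (−2.91 ± 0.37). Both were lower in both sexes.

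ATRX, a chromatin remodeller that deposits histone variants, went from 6.72 and 5.42 to 161 and 227 CPM (4.99 ± 0.34), and TRIM33, a relative of TRIM28, from 1.83 and 1.33 to 47.0 and 54.0 (4.98 ± 0.38). The methyltransferase SETDB1, named after its values were seen, stood at 39.7, 43.4, 39.9 and 34.9 CPM (−0.15, 95% interval −0.81 to 0.51), and was at 0.08 with library totals. MPHOSPH8, a reader of heterochromatin, had 0.04 ± 0.29. The number of lower calls fell from 5 to 2 without the control female library, without the sevoflurane male library or with library totals.

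Among genes whose numbered names differ by a letter, ZNF518A (4.35) and ZNF518B (1.85) both rose, as did ZNF33B (4.09) and ZNF33A (1.15), and the differences within these pairs were not tested. Some other such groups shared a direction and some did not. ZNF280D (1.65) and, below the minimum, ZNF280B (8.91, with 0 control reads) and ZNF280C (4.02) were called higher. ZNF354A (0.753), ZNF354C (0.996) and, below the minimum, ZNF354B (0.999) were positive, with ZNF354C alone called. ZNF804A was called higher at 2.66, and ZNF804B, below the minimum, was at 1.26 without a call. The ZNF75 and ZNF385 groups did not share a direction. ZNF75A was at −0.27 without a call and ZNF75D, below the minimum, was called higher at 3.86. ZNF385A (−0.82) and, below the minimum, ZNF385C (−0.76) and ZNF385B (3.04) were not called, while ZNF385D, also below it, was called higher at 2.74. In RefSeq gene order (assembly T2T-MMU8v2.0, not known to be that of the counts, used for order alone), 182 of the 194 genes were matched by symbol. Among named protein-coding genes in that order, 19 pairs of the 194 genes were direct neighbours, made of 34 genes. Both partners had the same sign in 17 of the 19 pairs (89.5%), against 57.1% of all possible pairs of the 194, which is a description since pairs share genes. The count minimum also fixed the sign of some of these genes. Both partners were called in 3 pairs, chosen here for that reason. ZNF268 (2.48) and ZNF605 (2.69) rose, as did ZNF667 (2.95) and ZNF471 (3.76), while ZNF787 (−2.07) and ZNF444 (−2.40) fell. The rising genes had control means under 200 and ZNF787 a sevoflurane mean under 200, so the selection set their directions.

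The change had the same sign in both sexes for 177 of the 194 genes (91.2%). This held for 85.3% of all tested genes and 88.4% of those with the same minimum. All 58 genes with a control mean under 200 kept 1 sign, beside 97.4% of all genes so selected. Among the 136 with a control mean of 200 or more 87.5% did, beside 86.9% of all genes so chosen. Over the 194 genes the median difference in log2 CPM (prior count 2) was 0.47 in females and 0.63 in males. The male difference was the larger in 59 of the 70 genes called higher and in 18 of the 20 called lower, against 73.7% and 81.8% of all genes called in those directions. In 59 of the 70 the control male lay below the control female, against 70.6% of all higher genes. In 19 of the 20 lower genes the sevoflurane male lay below the sevoflurane female, against 69.2% of all lower genes. With 1 library for each sex and condition, a difference between the sexes in response could not be tested.

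**Figure D5:**
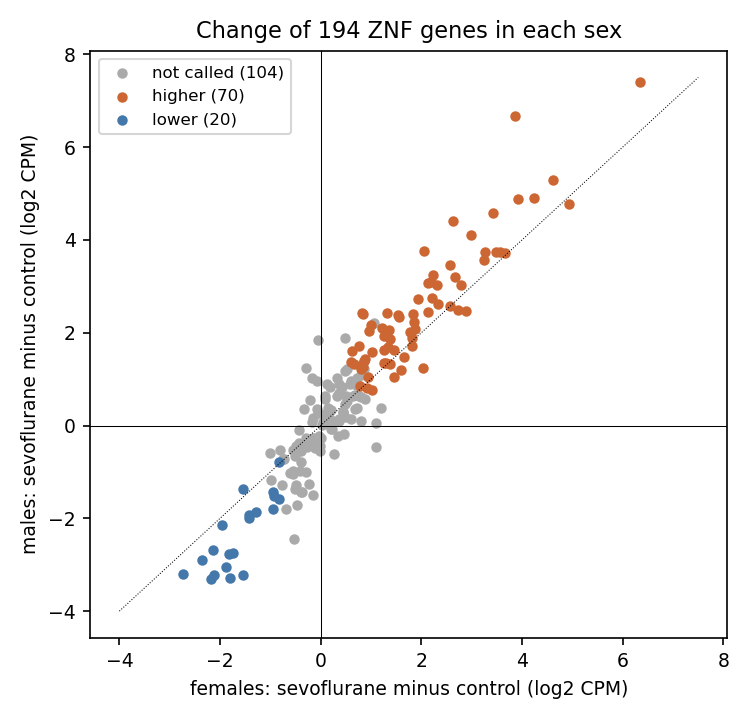
Change of each of the 194 ZNF genes in males against that in females, as sevoflurane minus control in log2 CPM, coloured by call. The dotted line marks equal change. Most points lie in the quadrants of equal sign, and most called genes lie farther from 0 on the male axis.

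Of the 104 genes not called, 26 had a 95% interval of the log2 fold change that lay within −1 and 1, so that a 2-fold change either way fell outside it. For the other uncalled genes the interval reached past 2-fold. Calls kept in every fit were counted for the 194 genes alone, and the count minimum had set the direction of some of them. Of the 194 genes, 39 were called higher and 13 lower in each of the 11 fits made.

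Shares of higher calls differed between other families of regulators, in which no count minimum beyond the filter was set. Of 38 tested ZBTB genes, zinc finger regulators with a BTB domain, 17 were higher (44.7%) and 3 lower (median 1.01). ZSCAN genes, which pair fingers with a SCAN domain, had 4 higher (21.1%) and 2 lower of 19, a share of higher calls near the 21.3% of all tested genes, and ZKSCAN genes 4 and 0 of 7. All 379 tested ZNF rows had 40.4% higher. Ubiquitin-specific proteases (USP), enzymes with no zinc finger array, had 29 higher and 2 lower of 46 (63.0% and 4.35%). No difference between these families and the 194 genes was tested.

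Reads on genes ran from 12477047 to 16293371 per library, the sevoflurane libraries lying between the controls. Genes with a read numbered 18371 and 18565 in controls and 19049 and 19450 after sevoflurane. Microglial markers were lower in 6 of 9 cases, and their summed level was 440 to 480 CPM in controls and 180 to 241 after sevoflurane. Summed neuronal markers ran from 5299 to 6249 CPM in controls and from 6359 to 7188 after sevoflurane, with 2 of 10 called higher and 1 lower. Of 8 astrocyte markers 3 were lower (GFAP −2.53, S100B −1.94 and ALDH1L1 −1.16) and 1 higher (SLC1A2 4.30), with sums of 4122 to 4413 CPM in controls and 3081 to 3832 after sevoflurane. Oligodendrocyte markers summed to 1582 and 6694 CPM in the control female and male and to 3127 and 4074 after sevoflurane. Choroid plexus markers summed to 17997 CPM in the control male library and to at most 34.3 in the others. None of the matched markers was at 0 in every library, and HBA2, HBB, HBD, MAG and AQP1 were not matched to an ID. The part of these differences in the ZNF changes was not tested, and in bulk tissue fewer cells of a type and less RNA per cell cannot be told apart.

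Changes are relative to TMM scaling. With library totals the median of all tested genes was 0.24, that of the 194 genes 0.75, and 83 of them were called higher and 17 lower, beside 3907 and 2269 of all tested genes in place of 3282 and 2996. Transcript and UTR lengths and protein sequences were not used here, so CPM is compared within a gene and not between genes. Counts of closely related zinc finger genes may share reads, since the sources used here give no counting rule.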

How the data were processed

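Per the labels, total RNA of the amygdala was sequenced in 4 libraries. The authors deposited unnormalized counts of reads for each Ensembl gene, made from reads aligned with HISAT2, per the submitters' processing notes. No source used here gives its version, the counting program, the build or the strand setting. Symbols came from a table of gene IDs and matched 24173 of 35395 IDs.

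Conditions and sex were read from the labels. Replicate 1 is the female and replicate 2 the male. Genes were filtered with filterByExpr (minimum count 10) in edgeR 4.0.16 (R 4.3.3), scaled by TMM (factors 0.942, 0.904, 1.10 and 1.07 for the control female, control male, sevoflurane female and sevoflurane male), and tested with quasi-likelihood F statistics, condition being the sole model term (2 residual degrees of freedom). The 15417 tested genes were adjusted together by Benjamini-Hochberg, and 0.05 was the limit for a call. SEs derive from the F statistic. The method was tested on simulated data. Alternatives included DESeq2 1.42.0.

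The members and lists were chosen with earlier results of these data known, so no list was tested as a whole. Named genes were the 8 called genes of largest rise and 8 of largest fall, and in each role list the 2 largest called rises, the 2 largest called falls and the uncalled gene of smallest change, plus the genes next to the count minimum. Every other gene named was chosen after its values were seen.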

Additional observations from a re-analysis of the deposited data

Results flagged for a closer look

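Each of these genes had a difference of opposite sign in females and males. With 1 library for each sex and condition, the difference between the sexes was not tested, and none of the 5 genes was called by edgeR. MPHOSPH8 was at −0.350 in females and 0.383 in males (sevoflurane minus control, log2 CPM). ZNF512 was at −0.0512 and 0.277 in the same order, ZNF350 at 0.206 and −0.0663, ZNF330 at 0.219 and −0.0839, and SETDB1 at 0.0101 and −0.315.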

How the results depend on the processing

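Of the 70 and 20 ZNF genes called higher and lower, all kept their direction in each of the 10 other fits. Leaving out 1 library gave 43 to 63 higher and 13 to 26 lower, medians of 0.50 to 0.65, and 1967 to 3029 higher and 1502 to 2771 lower calls over all tested genes. With sex as a term, which is the block that the replicate numbers used here amount to, 79 ZNF genes were called higher and 31 lower. The calls over all tested genes in that fit are not given here. With library totals the median was 0.75. The count minimum changed the number of genes as well as the calls. It gave 106 higher at 100 (median 0.75). At 500 it gave 27 higher and 9 lower of 71 (38.0% and 12.7%, median 0.64), shares near the 36.1% and 10.3% of the 194. All 379 tested ZNF rows had 153 higher and 27 lower (40.4% and 7.12%, median 0.92), beside 21.3% and 19.4% of all tested genes. A control mean of 200 gave 24 higher and 24 lower of 144 (16.7% each, median 0.0624), beside 12.3% and 30.8% of all genes so chosen. At 200 in each condition 24 were higher and 11 lower of 123 (19.5% and 8.94%, median 0.17), beside 13.8% and 25.9%. A sevoflurane mean of 200, chosen after seeing the data, gave 97 higher and 11 lower of 222 (43.7% and 4.95%, median 0.86), beside 26.8% and 20.5%. Uncalled genes near 0 changed sign when 1 library was left out: MPHOSPH8 ran from −0.250 to 0.289, ZNF330 from −0.0522 to 0.180, ZNF350 from −0.0698 to 0.204, ZNF423 from −0.0274 to 0.363 and ZNF512 from −0.0257 to 0.247. With library totals SETDB1 was at 0.0836. The cause was not tested. A fit that leaves out a library assumes that the lone library varies like the other group. The labels mark females and males in both conditions but tie no control to a sevoflurane animal.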
